A study of Mus musculus with 7 samples.

Results

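Regulatory T cells restrain other T cells, and in tumors they often carry high levels of costimulatory receptors of the TNF receptor family. The 9 genes described here, chosen by symbol from the 21892 listed genes, encode the regulators FOXP3 and Helios (Ikzf2), the IL-2 receptor alpha chain CD25 (Il2ra), the cytokine IL-10 (Il10), the TNF receptors GITR (Tnfrsf18), OX40 (Tnfrsf4) and 4-1BB (Tnfrsf9), the costimulator ICOS (Icos) and the chemokine receptor CCR8 (Ccr8). All 9 passed the filter of a mean of at least 1 TPM, a transcript abundance normalized for gene length and with the same total in each library. Cd8a, which encodes a chain of the CD8 co-receptor of cytotoxic T cells, served as the comparator for Foxp3.

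Tumors with an Egfr exon 19 deletion, grown under the skin of C57BL/6 mice and labelled as lung tumor, gave 1 bulk RNA library for each of 7 groups. A vehicle group was sampled at day 3. Further groups were sampled after 3 or 14 days of gefitinib, which inhibits the kinase of EGFR. The last 4 groups all had gefitinib for 14 days and then, for 7 days, both antibodies together, 4H2 alone, DC101 alone or vehicle. DC101 blocks mouse VEGFR2, and 4H2 is the antibody to PD-1, a target known here from the series title. For both vehicle libraries the title was followed, although their treatment field reads no treatment. The labels give no count of animals per library. There are no replicates, so every difference below is between 2 libraries, has no replicate check and carries no test. The sequencing depth is unknown. In bulk tumor RNA, fewer cells of a type and less RNA per cell cannot be told apart.

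FOXP3 is the transcription factor that defines the regulatory lineage. IL-2, bound through CD25 and the shared beta and gamma chains, activates STAT5, which maintains Foxp3 expression. GITR, OX40 and 4-1BB bind ligands on antigen-presenting cells and signal through TRAF adaptors to NF-kB. ICOS belongs to the CD28 family. None of these receptors is limited to regulatory cells: activated CD4 and CD8 T cells, NK cells and some myeloid cells also express several of them, and macrophages and other cells make IL-10.

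Promoter windows of the 250 bases before a start site, from RefSeq on GRCm38.p6, were found for 6 of the 9 genes, with 8 windows in all. They were searched because STAT5 and NF-kB, the factors downstream of the receptors described here, bind known short motifs. The windows shown, of Foxp3, Il2ra and Tnfrsf9, are among those that held a match. Those of Tnfrsf4 and Ccr8 held neither motif and are not printed. Capitals mark TTCNNNGAA, the core of STAT sites, and the NF-kB consensus, searched on both strands. Foxp3 and Tnfrsf9 have 2 windows each. Those at their annotated gene starts held neither motif and are not printed. The Foxp3 window shown lies before a start 807 bases inside the gene, and the Tnfrsf9 window shown before a start 7844 bases inside it; only the 169 bases of the Tnfrsf9 window outside annotated UTRs are printed.
Foxp3, chrX:7580233-7580482, plus strand: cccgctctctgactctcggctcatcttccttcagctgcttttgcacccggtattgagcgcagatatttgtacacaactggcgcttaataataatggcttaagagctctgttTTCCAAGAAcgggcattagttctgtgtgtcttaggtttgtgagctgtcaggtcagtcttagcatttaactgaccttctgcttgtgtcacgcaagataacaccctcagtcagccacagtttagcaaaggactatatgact
Il2ra, chr2:11642542-11642791, plus strand: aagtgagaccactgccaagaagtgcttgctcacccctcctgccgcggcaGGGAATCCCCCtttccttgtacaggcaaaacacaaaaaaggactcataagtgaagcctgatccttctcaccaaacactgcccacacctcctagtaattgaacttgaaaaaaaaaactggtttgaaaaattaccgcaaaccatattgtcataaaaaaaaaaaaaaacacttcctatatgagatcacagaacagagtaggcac
Tnfrsf9, chr4:150927749-150927917, plus strand: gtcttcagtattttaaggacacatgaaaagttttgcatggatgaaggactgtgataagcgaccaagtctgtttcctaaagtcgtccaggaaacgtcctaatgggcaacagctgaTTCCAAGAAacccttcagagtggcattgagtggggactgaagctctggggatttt
The letters TTCCAAGAA stood at positions -139 to -131 from that Foxp3 start and at -136 to -128 from that Tnfrsf9 start. In Il2ra, 3 overlapping NF-kB matches covered positions -201 to -191, counting the stretch at -201 to -192 once on each strand. TTCNNNGAA was in 3 of the 8 windows, that of Tnfrsf18 being the other, and in 7.02% of 32851 promoter windows of the same length. The NF-kB consensus was in 2 of the 8 windows and in 7.25% of all, and the other was that of Tnfrsf9, in its UTR stretch that is not printed. A shorter motif, GGAAA, the core of NFAT sites, was in 7 of 8 windows and in 55.6% of all; its match in the printed Foxp3 window overlaps the TTCNNNGAA match. A match describes letters in a window and is not a binding site.

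In the day 3 vehicle library 8 of the 9 genes had their lowest level, all but Ikzf2. At day 14 of gefitinib 8 of the 9 had their highest, all but Il10, which was highest at day 3 of gefitinib. The summed level of the 9 genes was 42.3 TPM in day 3 vehicle tumors, 118.7 and 198.2 TPM at days 3 and 14 of gefitinib and 113.1 TPM in day 21 vehicle tumors. It was 115.3 TPM with both antibodies, 122.0 with 4H2 and 72.3 with DC101, against those 113.1 TPM. GITR, OX40 and 4-1BB transcripts made up between 50% and 59.4% of the sum in every library.

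**Figure D1:**
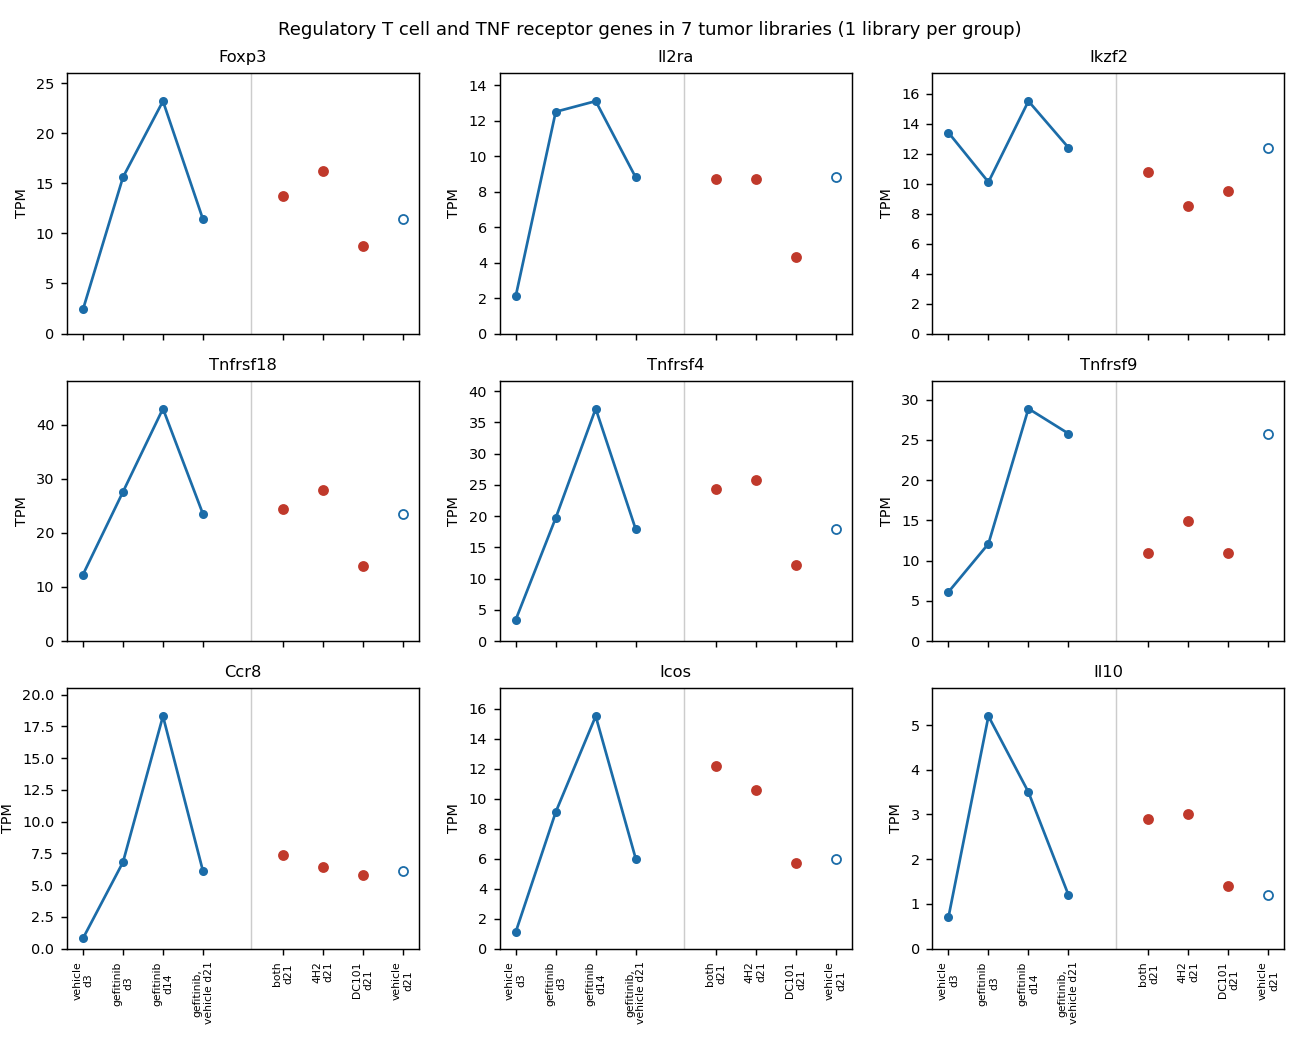
TPM of each of the 9 genes in the 7 libraries (1 library per group). Blue points joined by a line follow vehicle at day 3, gefitinib at days 3 and 14 and vehicle at day 21; red points are the antibody groups of day 21, beside the same vehicle library as an open point. Foxp3 peaks at 23.2 TPM at day 14, whereas Ikzf2 stays between 8.5 and 15.5 TPM.

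Foxp3 (chromosome X, 7579676 to 7595243) stood at 2.4 TPM in day 3 vehicle tumors, 15.6 and 23.2 TPM at days 3 and 14 of gefitinib and 11.4 TPM in day 21 vehicle tumors. With both antibodies it was at 13.7 TPM, with 4H2 at 16.2 and with DC101 at 8.7, against 11.4 TPM with vehicle. The highest level was thus 9.67 times the lowest, and the day 21 libraries lay within a narrower band. Ikzf2 (chromosome 1, 69531207 to 69687351), whose product Helios marks many regulatory T cells, did not follow this order. It was at 13.4, 10.1, 15.5 and 12.4 TPM along the same 4 libraries, and at 10.8, 8.5 and 9.5 TPM with both antibodies, 4H2 and DC101, against 12.4 TPM with vehicle. In the day 3 vehicle library Ikzf2 was thus at 5.58 times the level of Foxp3, and at day 3 of gefitinib at 0.647 times.

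CD25 is the chain that gives the IL-2 receptor its high affinity. Il2ra (chromosome 2, 11642792 to 11693194) stood at 2.1 TPM in day 3 vehicle tumors, 12.5 and 13.1 TPM at days 3 and 14 of gefitinib and 8.8 TPM in day 21 vehicle tumors. It was at 8.7 TPM with both antibodies, 8.7 with 4H2 and 4.3 with DC101, against 8.8 TPM with vehicle, so DC101 alone had the low value among the day 21 libraries. IL-10 suppresses antigen-presenting cells. Il10 (chromosome 1, 131019845 to 131024970) was the lowest of the 9 genes in all 7 libraries. Its values were 0.7, 5.2, 3.5 and 1.2 TPM along the gefitinib course, and 2.9, 3.0 and 1.4 TPM with both antibodies, 4H2 and DC101, against 1.2 TPM with vehicle.

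The genes of GITR and OX40 lie 9708 bases apart on chromosome 4 (Tnfrsf18 at 156026322 to 156028894, Tnfrsf4 at 156013595 to 156016613). Tnfrsf18 was at 12.3, 27.6, 43.0 and 23.5 TPM along the gefitinib course, and at 24.4, 28.0 and 13.8 TPM with both antibodies, 4H2 and DC101, against 23.5 TPM with vehicle. Tnfrsf4 was at 3.4, 19.7, 37.2 and 17.9 TPM along the course, and at 24.3, 25.7 and 12.2 TPM with the same antibodies, against 17.9 TPM with vehicle. Both had their lowest day 21 value with DC101. The ratio of Tnfrsf4 to Foxp3 was between 1.26 and 1.77 in the 7 libraries. Tnfrsf18 was at 5.13 times Foxp3 in the day 3 vehicle library and between 1.59 and 2.06 times in all others.

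4-1BB, a receptor induced on T and NK cells by activation, had another order. Tnfrsf9 (chromosome 4, 150920155 to 150946104) was at 6.1, 12.1, 28.9 and 25.8 TPM along the gefitinib course, so the day 21 vehicle library was close to day 14. It was at 10.9 TPM with both antibodies, 14.9 with 4H2 and 10.9 with DC101, against 25.8 TPM with vehicle. All 3 antibody libraries therefore lay below the day 21 vehicle library. Relative to Foxp3, Tnfrsf9 was at 0.796 with both antibodies, 0.920 with 4H2 and 1.25 with DC101, against 2.26 with vehicle.

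ICOS sustains effector and regulatory T cells after activation. Icos (chromosome 1, 60960773 to 61000322) was at 1.1, 9.1, 15.5 and 6.0 TPM along the course, and at 12.2, 10.6 and 5.7 TPM with both antibodies, 4H2 and DC101, against 6.0 TPM with vehicle. Both groups that received 4H2 lay above the other day 21 libraries. CCR8 is enriched on regulatory T cells within tumors. Ccr8 (chromosome 9, 120092133 to 120094906) had the widest range of the 9, with 0.8, 6.8, 18.3 and 6.1 TPM along the course. It stayed between 5.8 and 7.4 TPM in the 4 day 21 libraries. Per Foxp3 transcript it was highest at day 14, at 0.789, and lowest in the day 3 vehicle library, at 0.333.

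Some of these genes share DNA with others in the GENCODE vM21 annotation, and the labels do not say whether counting used the strand. Tnfrsf9 lies opposite Camta1, which was at 7.6 TPM with both antibodies, 7.2 with 4H2 and 2.0 with DC101, against 1.3 TPM with vehicle. The end of Foxp3 overlaps Ccdc22 on the other strand, which stayed between 24.2 and 29.5 TPM, and Tnfrsf18 overlaps the antisense gene Gm16008. Foxp3 also overlaps Ppp1r3f on the other strand. Like Foxp3, Ppp1r3f was lowest in day 3 vehicle, at 2.6 TPM, and highest at day 14 of gefitinib, at 6.0 TPM.

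Differences between libraries were taken as log2((TPM + 1) / (TPM + 1)), which understates the change of low genes, and a gene was counted when it lay at least 2-fold apart on that scale. At day 3 of gefitinib against vehicle, 7 of the 9 genes were at least 2-fold higher and 0 lower, where 20.8% of the 13997 genes compared were higher and 14.4% lower. Their median log2 difference was 2.12, against -0.09 over all genes. Foxp3 led at 2.29, followed by Icos at 2.27, Tnfrsf4 at 2.23 and Il2ra and Ccr8 at 2.12 each. Tnfrsf9 at 0.88 and Ikzf2 at -0.38 did not reach 2-fold. At day 14 against the same vehicle library, 8 were higher and 0 lower, where 22.7% of all genes were higher and 12.7% lower. Ccr8 led there at 3.42 and Tnfrsf4 followed at 3.12, and the median was 2.19 against 0.03 over all genes. These comparisons share the day 3 vehicle library. No library without gefitinib was sampled at day 14, so gefitinib and time cannot be told apart there.

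Markers of other tissues moved between these libraries too. The summed level of 6 epithelial genes was 2892.8 TPM with day 3 vehicle, 870.8 and 1397.2 TPM at days 3 and 14 of gefitinib and 6132.9 TPM with day 21 vehicle. All 6 were at least 2-fold lower at day 3 than with vehicle, and all 6 higher in day 21 vehicle than at day 14. The sum of 5 fibroblast genes was 1533.6, 17372.5, 9208.5 and 6408.5 TPM along the same libraries, and that of 6 skeletal muscle genes was 234.0, 1636.4, 2525.5 and 2148.2 TPM. All 5 fibroblast and all 6 muscle genes were at least 2-fold higher at both gefitinib times than with day 3 vehicle. The part of these markers in the differences of the 9 genes was not tested.

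Between day 14 and day 3 of gefitinib, Ccr8 at 1.31 and Tnfrsf9 at 1.19 were at least 2-fold higher, 2 of 9 where 4.93% of all genes were; 0 were lower where 2.73% of all genes were. Il10 alone was below 0, at -0.46. With a pseudocount of 5 TPM neither gene reached 2-fold.

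After the 7 days without gefitinib, all 9 genes were lower in the day 21 vehicle library than at day 14, between -0.16 for Tnfrsf9 and -1.44 for Ccr8. Of these, 4 passed 2-fold (Ccr8, Icos at -1.24, Il10 at -1.03 and Tnfrsf4 at -1.02), where 7.89% of all genes were lower, and 0 of the 9 were higher where 7.62% of all genes were. Foxp3 was just short of it at -0.96; it passed with a pseudocount of 0.1 TPM, at -1.02, and under rescaling without epithelial, muscle and the 20 most abundant genes, at -1.04. With a pseudocount of 5 TPM Ccr8 alone passed, at -1.07. The median was -0.96, against -0.01 over all genes. Compared with the day 3 vehicle library, 6 of the 9 were still at least 2-fold higher, where 15.3% of all genes were, and 0 were lower where 3.11% were. Il10 at 0.37, Tnfrsf18 at 0.88 and Ikzf2 at -0.10 were the exceptions, and a pseudocount of 5 TPM left 3 genes higher. Both comparisons use the day 21 vehicle library, and they share the day 14 and day 3 vehicle libraries with those above. In both, the libraries differ in day as well as in gefitinib, and the 2 cannot be told apart.

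**Figure D2:**
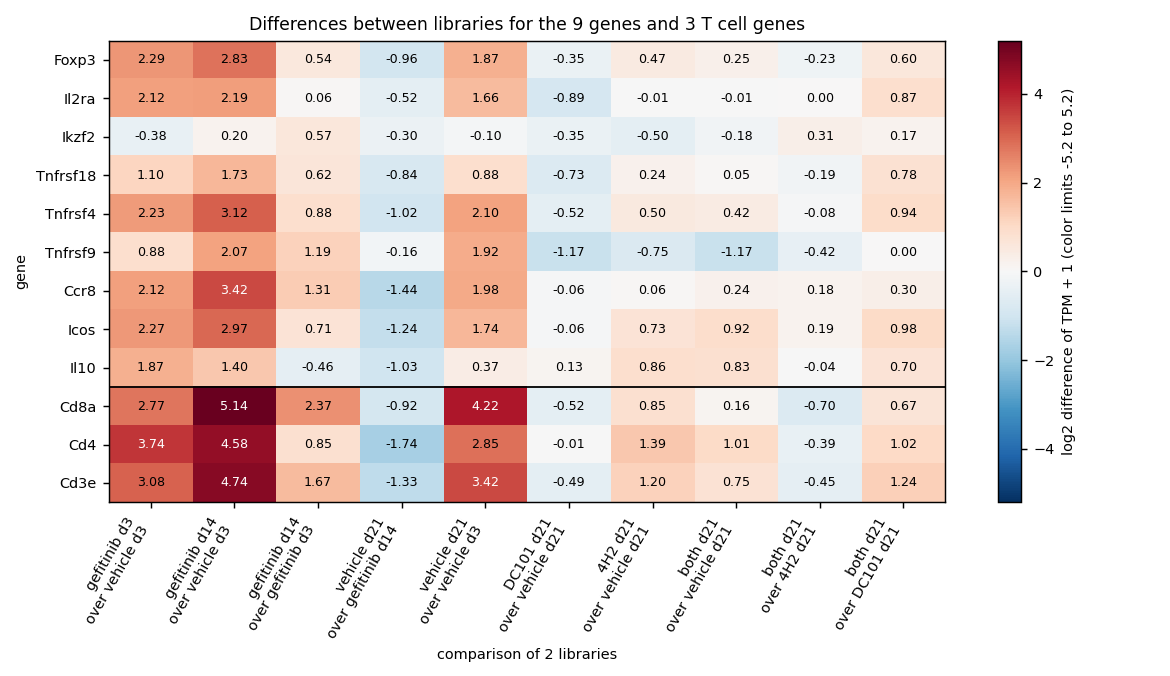
Log2 difference of each of the 9 genes and of 3 T cell genes (rows) in the 10 pairs of libraries (columns), on the log2(TPM + 1) scale, with red for higher and blue for lower in the library named first. The gefitinib columns against day 3 vehicle are red for 8 of the 9 genes, with Ikzf2 at -0.38 and 0.20, and Tnfrsf9 has the lowest value in each antibody column against day 21 vehicle.

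Each antibody library was set against the same day 21 vehicle library, so these comparisons share its value. With both antibodies, 0 of the 9 genes were at least 2-fold higher and 1 was lower, where 11.7% of all genes were higher and 17.0% lower. That gene was Tnfrsf9 at -1.17, while Icos at 0.92 and Il10 at 0.83 were the highest. With 4H2, 0 of the 9 passed in either direction, where 10.9% of all genes were higher and 20% lower, and the range was -0.75 for Tnfrsf9 to 0.86 for Il10. With DC101, Tnfrsf9 at -1.17 was lower and 0 were higher, where 1.11% of all genes were lower and 3.12% higher; 8 of the 9 were below 0, among them Il2ra at -0.89 and Tnfrsf18 at -0.73. The medians of the 9 were 0.24 with both antibodies, 0.24 with 4H2 and -0.35 with DC101, against -0.17, -0.21 and -0.05 over all genes.

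A median-of-ratios rescaling moved the median of all genes up by 0.22 with both antibodies and by 0.23 with 4H2. With a pseudocount of 5 TPM, Tnfrsf9 was at -0.95 with both antibodies and with DC101, short of 2-fold. Under the rescaling Icos with both antibodies was at 1.13, Il10 with 4H2 at 1.03 and Tnfrsf9 with both antibodies at -0.95. The small differences of Il2ra with both antibodies and with 4H2, at -0.01, changed sign under both rescalings, and that of Ikzf2 with both antibodies, at -0.18, under the median-of-ratios one. The tissue markers also moved between the day 21 libraries. The summed level of 6 skeletal muscle genes was 54795.6 TPM with both antibodies, 56775.9 with 4H2 and 11725.3 with DC101, against 2148.2 TPM with vehicle, and all 6 were at least 2-fold higher in each antibody library. For 6 epithelial genes the sums were 305.7, 37.6 and 3930.6 TPM, against 6132.9 TPM with vehicle; all 6 were lower with both antibodies and with 4H2 and 1 of 6 with DC101. Their part here was not tested either.

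Directly between the antibody groups, both antibodies against 4H2 gave 0 of 9 genes past 2-fold in either direction, where 4.94% of all genes were higher and 0.464% lower. Both antibodies against DC101 also gave 0 of 9, where 11.1% of all genes were higher and 14.3% lower, but 8 of the 9 lay above 0, with a median of 0.70 against -0.09 over all genes. Icos at 0.98 and Tnfrsf4 at 0.94 were closest to 2-fold, and with median-of-ratios rescaling 3 genes passed it. Tnfrsf9 was equal in these libraries, at 10.9 TPM each.

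Ratios within a library do not depend on its scaling. Foxp3 was at 3.43 times Cd8a in the day 3 vehicle library, with a range of 3.13 to 3.77 from rounding to 1 decimal, since Cd8a was at 0.7 TPM there. The ratio was 1.47 and 0.395 at days 3 and 14 of gefitinib and 0.373 in the day 21 vehicle library. Cd8a itself (chromosome 6, 71373427 to 71379171) was at 0.7, 10.6, 58.8 and 30.6 TPM in those libraries, so that its level was above that of Foxp3 from day 14 on and below it before. With both antibodies the ratio was 0.401, with 4H2 0.289 and with DC101 0.412, against 0.373 with vehicle. The 4H2 library alone had the lowest Foxp3 to Cd8a ratio of the 7, with Cd8a at 56.0 TPM and Foxp3 at 16.2 TPM. With both antibodies Cd8a was at 34.2 TPM and with DC101 at 21.1 TPM, against 30.6 TPM with vehicle.

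**Figure D3:**
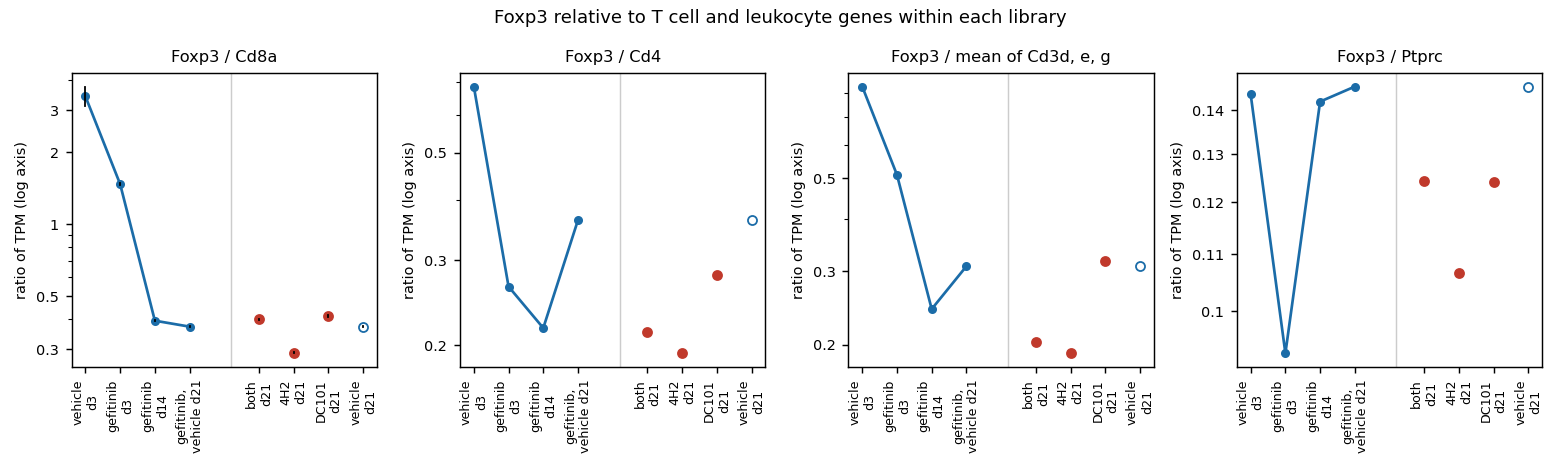
Ratio of Foxp3 TPM to that of Cd8a, of Cd4, of the mean of Cd3d, Cd3e and Cd3g, and of Ptprc in each library, on log axes with a different span in each panel; black bars on the Cd8a panel are the range from rounding. The ratio to Cd8a spans 3.43 to 0.289, whereas that to Ptprc spans 0.146 to 0.0933.

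The choice of denominator mattered to the size of these differences and, for some, to their direction. With both antibodies and with DC101, Foxp3 was above day 21 vehicle relative to Cd8a but below it relative to Cd4. From day 14 to day 21 vehicle it was lower relative to Cd8a but higher relative to Cd4. Relative to Cd4, the co-receptor gene of helper and most regulatory T cells, Foxp3 gave 0.686 in day 3 vehicle tumors, 0.264 and 0.217 at days 3 and 14 of gefitinib and 0.363 in day 21 vehicle tumors. It was at 0.213 with both antibodies, 0.192 with 4H2 and 0.280 with DC101, against 0.363 with vehicle. Relative to the mean of Cd3d, Cd3e and Cd3g, which encode the CD3 chains of all T cells, the course was 0.828, 0.509, 0.243 and 0.308. On that scale the value was 0.204 with both antibodies, 0.191 with 4H2 and 0.318 with DC101, against 0.308 with vehicle. Relative to Ptprc, the CD45 gene of all leukocytes, Foxp3 moved little: 0.144, 0.0933, 0.142 and 0.146 along the course, and 0.124, 0.107 and 0.124 with both antibodies, 4H2 and DC101, against 0.146 with vehicle. The Cd8a to Ptprc ratio, in contrast, was 0.0419, 0.0634, 0.360 and 0.391 along the course.

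Set against the CD3 mean, 0 of the 9 genes were at least 2-fold higher at day 3 of gefitinib than in day 3 vehicle and 3 were lower, where 0.64% of all genes were higher and 88.9% lower. At day 14, 0 were higher and 8 lower, where 0.174% of all genes were higher and 97.4% lower, and Ccr8 at -0.52 on the log2 scale was the gene that did not pass. Most genes were counted lower on this scale, so those 8 lie near the background. The median of the 9 was -0.83 at day 3 and -2.40 at day 14, against -3.52 and -5.02 over all genes. From day 3 to day 14, 0 were higher and 4 lower, where 0.808% of all genes were higher and 86.0% lower. In the day 21 vehicle library against day 14, 2 genes were higher, led by Tnfrsf9 at 1.20, and 0 lower, where 70.7% of all genes were higher and 0.95% lower.

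Under the antibodies the same scale again moved most genes. With both antibodies 0 of the 9 were higher and 2 lower than in day 21 vehicle, where 6.32% of all genes were higher and 52.8% lower. With 4H2 0 were higher and 4 lower, where 4.37% of all genes were higher and 67.1% lower. With DC101 0 passed in either direction, where 7.63% of all genes were higher and 0.784% lower. Tnfrsf9 was the lowest of the 9 in each, at -2.11 with both antibodies, -1.99 with 4H2 and -0.81 with DC101, against all-gene medians of -1.06, -1.42 and 0.38. The CD3 mean was 2.9, 30.6, 95.3 and 37.0 TPM along the course, and 67.3, 84.9 and 27.4 TPM with both antibodies, 4H2 and DC101, against 37.0 TPM with vehicle.

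Markers of other immune cells that can express some of these receptors moved as well. All 9 T cell genes and all 6 macrophage genes compared were at least 2-fold higher at day 3 and at day 14 of gefitinib than in day 3 vehicle. The macrophage sum was 733.8, 5596.6, 6264.5 and 2924.2 TPM along the course. Of 5 NK genes, Eomes was at 26.8, 31.3, 49.6 and 25.5 TPM, and the other 4 (Ncr1, Klrb1c, Klrk1 and Klra8) summed to 2.7, 44.0, 40.0 and 17.3 TPM. The sum of 5 mast cell genes, 4 of which were compared, was 10.8, 78.3, 101.9 and 21.5 TPM. No marker was listed at 0 in all 7 libraries. Their part in the differences of the 9 genes was not tested.

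The ligands of these receptors did not share an order. Tnfsf18 and Tnfsf4, the ligands of GITR and OX40, were scarce, at 0.0 to 1.2 TPM and 0.1 to 1.9 TPM, and the gene of IL-2 was at most at 0.3 TPM. Tnfsf9, the 4-1BB ligand, was at 18.3, 8.5, 15.2 and 29.4 TPM along the gefitinib course. With both antibodies it was at 10 TPM, with 4H2 at 7.3 and with DC101 at 17.9, against 29.4 TPM with vehicle, so that, as for its receptor, all 3 antibody libraries were below vehicle. Icosl, the ICOS ligand, was at 4.5, 19.8, 42.9 and 19.6 TPM along the course, with its top at day 14 like Icos. It was at 15.1 TPM with both antibodies, 17.2 with 4H2 and 13.9 with DC101, against 19.6 TPM with vehicle.

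CCL1 and CCL8 bind CCR8 in mice. Ccl1 was at 0.5, 6.5, 4.5 and 0.5 TPM along the course, and at 9.4, 7.0 and 1.8 TPM with both antibodies, 4H2 and DC101, against 0.5 TPM with vehicle. Ccl8 was far more abundant, at 401.2, 1742.2, 2161.1 and 673.1 TPM along the course, and at 1374.7, 1338.7 and 712.3 TPM with the same antibodies, against 673.1 TPM with vehicle. Both were higher in the libraries that received 4H2, where Ccr8 itself differed little. The CCR4 ligands CCL17 and CCL22 also recruit regulatory T cells. Ccl17 was at 31.0, 2.5, 4.3 and 16.1 TPM along the course, and at 1.2, 1.5 and 18.3 TPM with both antibodies, 4H2 and DC101, against 16.1 TPM with vehicle. Ccl22 ranged over the 7 libraries from 31.7 to 62.5 TPM.

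**Figure D4:**
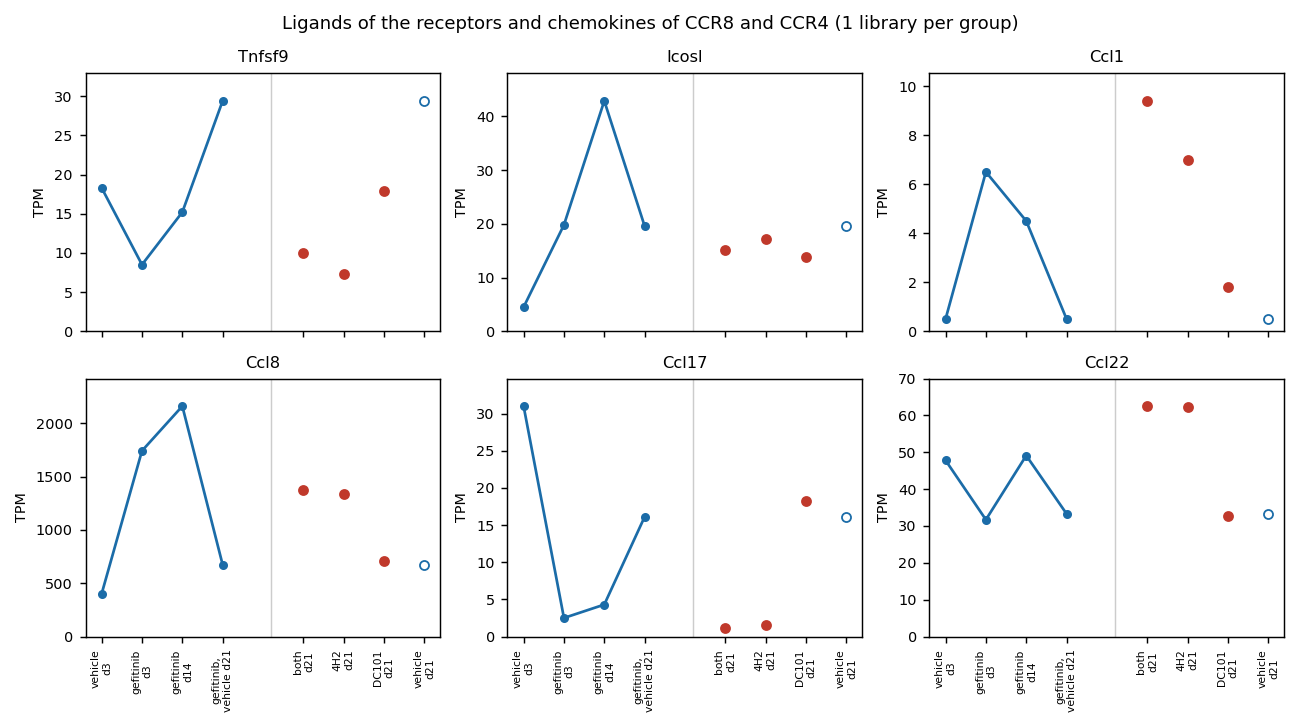
TPM of 6 ligand genes in the 7 libraries (1 library per group), drawn as in the plot of the 9 genes. Tnfsf9 is highest in the day 21 vehicle library at 29.4 TPM, Icosl at day 14 of gefitinib at 42.9 TPM, and Ccl17 is at 2.5 TPM or less at day 3 of gefitinib and in both libraries that received 4H2.

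Of 22 further genes of the regulatory T cell programme, 21 were compared. At day 3 of gefitinib 17 were at least 2-fold higher than in vehicle and 0 lower, with a median log2 difference of 1.64. At day 14, 19 were higher and 0 lower, with a median of 1.92. At these times the 9 T cell genes had medians of 2.74 and 3.98, and the 6 macrophage genes 2.93 and 3.15. Higher levels were thus not particular to this list. Some of its genes were far above Foxp3 at day 3 of gefitinib, with Tgfb1 at 429.6 and Il2rg at 238.9 TPM against 15.6 TPM. Of all genes, 20.8% were higher and 14.4% lower at day 3, and 22.7% and 12.7% at day 14. Il2rb, the IL-2 receptor beta chain, was at 65.7 TPM at day 3 and 172.5 TPM at day 14, against 4.4 TPM with vehicle. Tigit, an inhibitory receptor, was at 53.9 TPM at day 14 against 1.5 TPM with vehicle. In the day 21 vehicle library 1 of the 21 genes was higher and 9 were lower than at day 14, with a median of -0.91. Over all genes 7.62% were higher and 7.89% lower. Among the 9 was Lrrc32, which encodes the TGF-beta carrier GARP, at 25.5 against 74.5 TPM. With both antibodies 3 were higher and 1 lower than with day 21 vehicle, with 4H2 4 and 1, and with DC101 0 and 0. The counts of higher genes, 3 and 4 of 21, stand beside 11.7% of all genes with both antibodies and 10.9% with 4H2. Of all genes, 17.0% and 20% were lower there, and with DC101 3.12% were higher and 1.11% lower. Batf, a transcription factor of tissue regulatory T cells, was at 62.4 TPM with both antibodies and 84.3 with 4H2, against 26.1 TPM with vehicle; Socs2 was the lower gene, at 8.2 and 10.4 TPM against 37.1 TPM.

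Among 19 other TNF receptor family genes, 10 were higher and 0 lower at day 3 and likewise at day 14 of gefitinib. Their medians were 1.04 and 1.51. At these times 20.8% and 22.7% of all genes were higher and 14.4% and 12.7% lower. Cd27, a costimulatory receptor of T cells, was at 32.5 TPM at day 14 against 1.5 TPM with vehicle, and Tnfrsf14, the HVEM gene, was at 129.0 against 11.5 TPM. In day 21 vehicle 1 was higher and 7 lower than at day 14, where 7.62% of all genes were higher and 7.89% lower. The higher gene was Tnfrsf12a, the TWEAK receptor gene, at 288.6 against 81.8 TPM. With both antibodies 4 were higher and 4 lower, where 11.7% of all genes were higher and 17.0% lower, and with 4H2 5 were higher and 4 lower, where 10.9% were higher and 20% lower. With DC101 only Ngfr was higher, at 28.1 against 11.2 TPM, and 0 were lower, where 3.12% of all genes were higher and 1.11% lower. Tnfrsf12a was at 22.0 TPM with both antibodies and 16.0 with 4H2, against 288.6 TPM with vehicle.

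Downstream of these receptors, 6 of 11 TRAF and NF-kB genes were higher and 0 lower at both gefitinib times, with medians of 1.29 and 1.81. Of all genes, 20.8% were higher and 14.4% lower at day 3, and 22.7% and 12.7% at day 14. Map3k14, the kinase of the alternative NF-kB pathway, was at 34.0 TPM at day 3 and 42.6 TPM at day 14, against 9.1 TPM with vehicle. In day 21 vehicle 0 were higher and 3 lower than at day 14, where 7.62% of all genes were higher and 7.89% lower. With both antibodies and with 4H2 only Traf1 passed, at 28.6 and 30.1 TPM against 12.3 TPM with vehicle. That is 1 of 11 genes higher, near the 11.7% and 10.9% of all genes. None was lower, where 17.0% and 20% of all genes were. Of 8 CD28 family genes and their ligands besides Icos and its ligand, 7 were higher at day 3 and 8 at day 14. In day 21 vehicle 5 of them were lower than at day 14. These counts stand beside the same shares of all genes. Btla, an inhibitory receptor, was at 8.3 TPM with both antibodies and 8.4 with 4H2, against 2.5 TPM with vehicle.

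In the IL-2 receptor pathway 6 of 8 genes were higher at both gefitinib times, where 20.8% and 22.7% of all genes were. With both antibodies 1 was higher and 1 lower than with vehicle, and with 4H2 3 and 1. Of all genes, 11.7% were higher and 17.0% lower with both antibodies, and 10.9% and 20% with 4H2. The 1 lower gene is thus not above the share of all genes. It was Cish, a STAT5-induced feedback inhibitor, at 14.2 and 15.8 TPM against 43.7 TPM. Among 4 genes of IL-10 signalling, 3 were higher at both gefitinib times, and Il10ra, the receptor's ligand-binding chain, was at 145.5 TPM at day 3 and 234.9 TPM at day 14, against 17.0 TPM with vehicle. None of the 4 passed under any antibody, beside the shares above and, with DC101, 3.12% of all genes higher and 1.11% lower. Of 13 other TNF family ligands, 8 were higher at day 3 and 11 at day 14, where 20.8% and 22.7% of all genes were. Ltb, a lymphotoxin chain, was at 115.7 TPM with both antibodies and 105.4 with 4H2, against 38.2 TPM with day 21 vehicle. Some genes stand in more than 1 of these lists, Il2rb and Il2rg among them.

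Likeness of profile was measured as the root mean square difference of log2(TPM + 1) over the 7 libraries, each gene centred on its own mean. The 8 genes nearest to Foxp3 among 13493 were Cd96, Slc8a1, Pvrig, Ppfia4, Ets1, Bin2, Adcy7 and H2-Aa, with differences of 0.0831 to 0.111, where the median gene was at 0.947. Cd96 and Pvrig encode receptors of T and NK cells, and Cd96 was at 0.4, 4.8, 9.1 and 3.8 TPM along the gefitinib course. The 8 were not all genes of such cells. H2-Aa, an MHC class II gene, was at 1039.7, 5306.5, 8032.0 and 3799.8 TPM along the same course. Among the 9 genes, Tnfrsf4 was nearest to Foxp3 at 0.157 and Icos next at 0.198. Ikzf2 was farthest at 0.913, close to the median of all genes.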

How the data were processed

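Total RNA from frozen tissue was depleted of ribosomal RNA and made into directional libraries, per the labels' protocols. The deposited table gives TPM per gene symbol, normalized to a fixed total per library and rounded by the authors to 1 decimal. Per the submitters' processing notes the genome build was GRCm38.p6; aligner, counter and annotation: not given in the sources used here. No counting interval was computed, since depth cannot be read from TPM.

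Groups followed the sample titles. Symbols were read exactly; positions came from RefSeq and gene overlaps from GENCODE vM21. Log2((TPM + 1) / (TPM + 1)) was computed for 13997 genes with a mean of at least 1 TPM in 10 pairs of libraries, with calls at 2-fold (Python 3.11.15, pandas 2.3.3). The code was checked on simulated data without noise and with large differences, which does not bear on calls near 2-fold. The members and gene lists were chosen with earlier results of these data known. Named are the 9 genes, their ligands, T cell comparators, Ptprc and the 8 profiles nearest to Foxp3. From each wider list and comparison, at most 3 genes with the largest difference and at least 5 TPM are named. Ccdc22, Ppp1r3f, Camta1 and Gm16008 are named for overlap. Alternatives were other pseudocounts (0.1 and 5 TPM), filters, scalings and denominators.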

Additional observations from a re-analysis of the deposited data

How the results depend on the processing

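With 1 library per group no library could be left out. No paired analysis was possible because each group has 1 library and no result comes from a test. Of 530 values of single genes under the alternatives, 500 kept their side of the 2-fold limit, 16 newly passed it and 14 no longer did. A pseudocount of 5 TPM gave 13 of the values that no longer passed, and 0.1 TPM gave 8 that newly passed. Median-of-ratios rescaling gave 5 that newly passed and 1 that no longer did. Rescaling without epithelial, muscle and the 20 most abundant genes gave 3 that newly passed. Among the 500 are 90 values without a filter and 80 with a mean of at least 5 TPM. Those could not change, because a filter only chooses which genes are kept.

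With a pseudocount of 5 TPM, 0 of the 9 genes were higher at day 14 than at day 3 of gefitinib, 1 was lower in day 21 vehicle than at day 14, 3 were higher in day 21 vehicle than in day 3 vehicle, and 0 were lower with DC101 or with both antibodies than with vehicle. With a pseudocount of 0.1 TPM, 2 were lower with DC101 than with vehicle, 1 was higher with 4H2, 2 with both antibodies, and 3 with both antibodies than with DC101. Median-of-ratios rescaling gave 1 higher with 4H2, 1 higher and 0 lower with both antibodies, and 3 higher with both antibodies than with DC101, where it moved the median of all genes by 0.18; rescaling without epithelial, muscle and the 20 most abundant genes gave 2 there.

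The log2 quotient of Foxp3 to Cd8a at day 3 of gefitinib over vehicle was -1.22; it was -0.70 with the CD3 mean as denominator and -0.48 with a pseudocount of 1 TPM. With Cd4 as denominator it was -0.28 for day 14 over day 3 and -0.92 for day 21 vehicle over day 3 vehicle, against -1.90 and -3.20 with Cd8a. With the mean of the pan-T genes, 2 genes in place of 4 were lower relative to T cell genes at day 14 than at day 3.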
